A study of Mus musculus with 16 samples.

Results

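Hearts that carried 2 transgenes at once were examined for genes whose level could not be had by adding the effects of the single transgenes. All 16 arrays of the series entered, 4 per genotype, each from the left ventricle of a different male mouse. The 4 genotypes were double transgenic mice (Myh6-TRAF2LC/Myh6-IκBαΔN), mice with the mutated IkBa alone (Myh6-IκBαΔN, written IkBaDN), mice with TRAF2 alone (Myh6-TRAF2LC, written TRAF2LC) and littermate controls. Both transgenes are driven by the promoter of Myh6, the gene of the cardiac alpha myosin heavy chain, so the proteins are made in cardiomyocytes while the RNA came from all cells of the tissue. Age, strain and treatment are not given in the labels, and neither is the number of founder lines. For each probe the interaction is (double transgenic minus IkBaDN) minus (TRAF2LC minus control) on the log2 scale of the normalized intensity. A value of 0 means that the 2 transgenes multiplied each other's fold effects, and a negative value means that double transgenic hearts stood below that sum of log2 effects. Of 25697 probes, 9449 had a detection p under 0.01 on 4 arrays or more and were tested, for 6902 genes.

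TRAF2 is an adapter that binds TNF receptors and brings in ubiquitin ligases, which leads to activation of the IKK kinases and of the canonical NF-kB dimers; in resting cells it also takes part in the breakdown of NIK, the kinase of the non-canonical NF-kB branch. IkBa keeps canonical NF-kB dimers in the cytoplasm until IKK marks it for degradation, and N-terminally deleted IkBa lacks the sites for that mark and so acts as a lasting inhibitor. In the heart, NF-kB is known for its part in inflammation, in hypertrophy and in survival after ischaemia.

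Between 7948 and 9397 probes were detected per array, and 4 arrays per genotype set the precision. Myl2, the myosin light chain of the ventricle, was detected on 16 of 16 arrays with log2 intensities from 15.16 to 15.52. Sarcolipin (Sln) and the atrial light chain Myl4, which mark atrial muscle, were also detected on 16 arrays each. Both were bright, with log2 intensities from 13.26 to 14.22 for Sln and from 14.13 to 14.66 for Myl4. Myl7, of the same marker list, read lower, from 9.36 to 10.82. The 2 most divergent arrays were TRAF2LC replicate 4 and IkBaDN replicate 2, by the lowest array weights in limma (0.382 and 0.428) and by the lowest median correlation with the other arrays of their genotype (0.972 and 0.975). TRAF2LC replicate 4 had the most probes detected, and IkBaDN replicate 2 the fewest and the lowest mean signal (129). The descriptions carry a number followed by P, of unstated meaning, in 3 runs (535 to 538, 617 to 624 and 663 to 675). The last run holds 3 of 4 double transgenic hearts and 0 of 4 IkBaDN hearts, and no run holds all 4 genotypes. Nothing in the labels ties the probes of Traf2 and Nfkbia to the transgenes, so these probes check no genotype. The Traf2 probe had means of 5.70 ± 0.22 in double transgenic, 5.85 ± 0.12 in IkBaDN, 6.11 ± 0.24 in TRAF2LC and 5.85 ± 0.18 in control hearts (log2 intensity, SD, n = 4 each).

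Very few probes departed from the sum of the single effects beyond the error of this design. Of the 9449 probes, 2 (0.0212%) had an interaction with an adjusted p under 0.05, and both were negative; the same 2 passed at 0.10. At an unadjusted p under 0.05 there were 593 probes (6.28%), 290 above 0 (3.07%) and 303 below 0 (3.21%). The median standard error of an interaction was 0.22 on the log2 scale, and 68 probes had an interaction of 1 or more in size. The smallest adjusted p outside the 2 called probes was 0.110, shared by 11 probes.

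Tsc22d4, which belongs to the TSC22 domain transcription regulators, was the only called probe with a gene name. Its log2 intensity was 8.49, 8.41, 8.12 and 8.55 in double transgenic hearts and 8.10, 8.71, 8.20 and 8.23 in IkBaDN hearts. In TRAF2LC hearts it was 11.08, 10.74, 10.64 and 11.15, and in control hearts 8.49, 8.45, 8.11 and 8.72. The 4 TRAF2LC hearts stood above all other arrays with no overlap, while the other 3 genotypes overlapped. Added together, the single effects gave an expected 10.77 for double transgenic hearts, and the measured mean was 8.39 ± 0.19 (SD, n = 4). The interaction was -2.38 ± 0.23 (SE, adjusted p = 0.000142), so double transgenic hearts stood 5.19-fold below the expected level. The TRAF2 effect on Tsc22d4 was 0.08 on the log2 scale beside the IkBa transgene (adjusted p = 0.972), against 2.46 without it (adjusted p = 4.57e-07).

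The other called probe, ILMN_2889832, has no gene name in the table used here and is described because it was called. It read 6.77, 6.95, 6.45 and 6.38 in double transgenic hearts and 5.80, 7.09, 5.83 and 5.80 in IkBaDN hearts. It read 9.45, 9.48, 9.13 and 10.10 in TRAF2LC hearts and 6.09, 5.94, 6.03 and 5.98 in control hearts. Again TRAF2LC alone stood apart, with a gap of more than 2 log2 units to every other array. The interaction was -3.02 ± 0.36 (SE, adjusted p = 0.00101), the double transgenic mean was 6.64 and the sum of single effects 9.66. Every double transgenic heart read above every control heart. The TRAF2 effect was 0.51 ± 0.25 beside the IkBa transgene (SE, adjusted p = 0.852), against 3.53 without it. One IkBaDN heart, replicate 2, lay above the other 3, and without that array the interaction was -2.71.

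**Figure D1:**
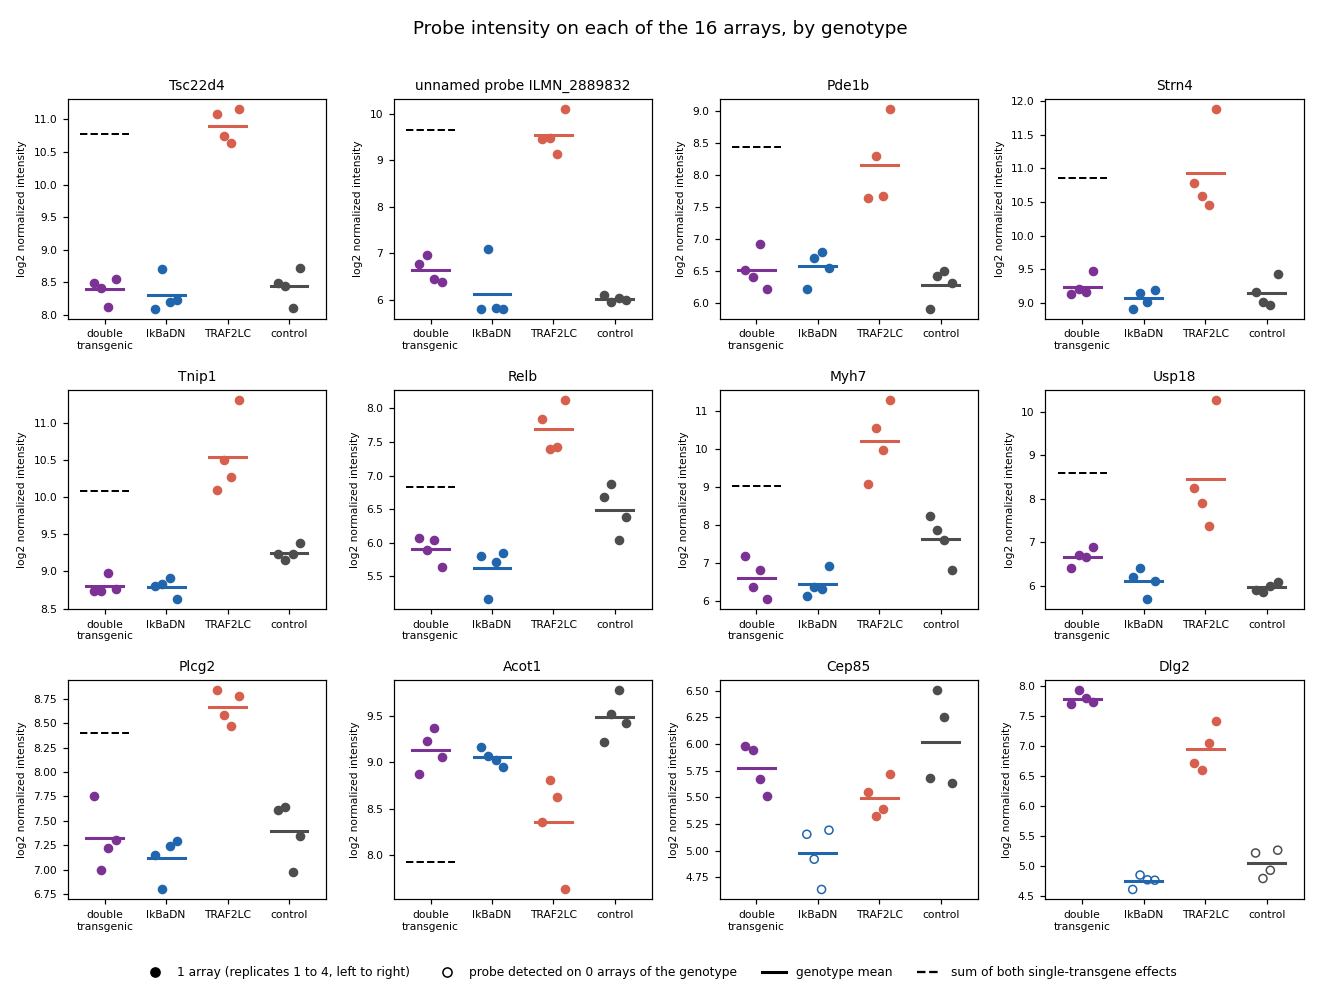
Log2 normalized intensity (y axis) of 12 probes on each array; points are replicates 1 to 4 of each genotype, solid bars are genotype means, the dashed line is the sum of both single-transgene effects (drawn where all 4 genotypes were detected) and open points mark genotypes in which the probe was detected on 0 arrays. In Tsc22d4 and the unnamed probe the double transgenic hearts lie far below the dashed lines at 10.77 and 9.66. In Tsc22d4 they overlap with IkBaDN and control hearts, while in the unnamed probe they all lie above the control hearts.

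Both calls stood in every processing alternative that was run, which are named in the closing section, and in each of the 16 fits that left out 1 array. Over those 16 fits the interaction of Tsc22d4 lay between -2.47 and -2.24 and that of the unnamed probe between -3.16 and -2.71. Without both divergent arrays the values were -2.16 ± 0.22 (SE, adjusted p = 0.000332) and -2.52 ± 0.20 (adjusted p = 2.47e-05). The first and the last 8 columns of the intensity table hold 2 arrays of each genotype, and within them the interaction of Tsc22d4 was -2.29 and -2.46. Within runs of the P numbers, TRAF2LC exceeded control hearts by 2.65 and 2.58 in Tsc22d4, and the 1 double transgenic heart of the first run exceeded its 2 IkBaDN hearts by 0.03.

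The 20 genes with the smallest p, chosen after their values were seen, show the shape that most non-additive candidates took. Apart from Tsc22d4 their adjusted p lay between 0.110 and 0.184, so 19 of them did not pass, and the genotype values are given as a description. Of the 20 fitted interactions 15 were negative and 5 positive. These counts include Dlg2, Tmem130 and Rnase1, in which genotypes on opposite sides of the contrast were undetected. Their fitted sign therefore rests on values below detection. In 17 of the 20, TRAF2LC was the genotype set apart by the widest gap between neighbouring means at either end, as the highest in 14 and the lowest in 3. Over all probes tested TRAF2LC stood apart in 33.3%, and among the 593 probes with an unadjusted p under 0.05 in 56.0%. Without TRAF2LC replicate 4, 435 probes had such a p and TRAF2LC stood apart in 54.9% of them. In 12 of the 20 the TRAF2LC values overlapped with no other array, against 2.16% of all probes tested; the choice by interaction uses the same values.

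Among the signalling genes, Pde1b, a calcium- and calmodulin-dependent phosphodiesterase, had 6.51, 6.40, 6.92 and 6.22 in double transgenic hearts and 6.22, 6.70, 6.80 and 6.54 in IkBaDN hearts. TRAF2LC hearts had 7.63, 8.30, 7.67 and 9.03 and control hearts 5.90, 6.42, 6.49 and 6.31. All 4 TRAF2LC hearts lay above the other 12, and replicate 4 lay highest. The interaction was -1.93 ± 0.36 (SE, adjusted p = 0.110) with all arrays and -1.63 ± 0.28 without TRAF2LC replicate 4, where it was called (adjusted p = 0.0299). Strn4, a striatin that scaffolds phosphatase complexes, had an interaction of -1.61 ± 0.32 (adjusted p = 0.110). Its TRAF2LC hearts read 10.79, 10.59, 10.46 and 11.88, and its means were 9.24 in double transgenic, 9.06 in IkBaDN and 9.14 in control hearts. Plcg2, a phospholipase C of immune receptor signalling, had means of 7.32, 7.12, 8.67 and 7.39 in double transgenic, IkBaDN, TRAF2LC and control hearts, and an interaction of -1.08 ± 0.25 (adjusted p = 0.184; 0.0464 with the column sets as a block, where it was called).

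Tnip1 encodes a protein that binds A20 and dampens NF-kB signalling, and its gene is an NF-kB target. Double transgenic hearts read 8.74, 8.73, 8.97 and 8.76 and IkBaDN hearts 8.80, 8.83, 8.91 and 8.63. TRAF2LC hearts read 10.09, 10.50, 10.27 and 11.31 and control hearts 9.23, 9.16, 9.24 and 9.38. Here both genotypes with the IkBa transgene lay below every control heart and every TRAF2LC heart above. The TRAF2 effect on Tnip1 was 0.01 beside the IkBa transgene, against 1.29 without it. The interaction was -1.28 ± 0.27 (SE, adjusted p = 0.111); a second Tnip1 probe detected on all arrays gave -1.06 ± 0.23 (adjusted p = 0.150). The first was called without TRAF2LC replicate 4 (-1.03 ± 0.16, adjusted p = 0.0151) and without both divergent arrays (-1.02 ± 0.17, adjusted p = 0.0407).

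Dlg2, a scaffold of the membrane-associated guanylate kinase family, had its highest values in double transgenic hearts. It was detected on 0 IkBaDN and 0 control arrays, and read 7.70, 7.94, 7.81 and 7.73 in double transgenic against 6.71, 6.60, 7.06 and 7.41 in TRAF2LC hearts. The genotypes with TRAF2 did not overlap, and double transgenic hearts exceeded TRAF2LC hearts by 0.85 (adjusted p = 0.00517). Against the detection limit, double transgenic hearts were at least 4.39-fold above IkBaDN hearts and TRAF2LC hearts at least 2.57-fold above control hearts. Dlg2 was the only probe (0.0106% of those tested) called for TRAF2 beside the IkBa transgene. With 2 genotypes undetected the interaction has no size, and its adjusted p was 0.110 with all arrays, 0.00961 without TRAF2LC replicate 4 and 0.0237 without both divergent arrays. These p-values of the limma test use the fitted values of the 2 undetected genotypes. Only the difference between double transgenic and TRAF2LC hearts lies between detected values.

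Contractile and metabolic genes stood on both sides of 0. Myh7, the slow beta isoform of cardiac myosin, read 7.20, 6.39, 6.82 and 6.05 in double transgenic and 6.15, 6.37, 6.32 and 6.93 in IkBaDN hearts. It read 9.07, 10.55, 9.99 and 11.30 in TRAF2LC and 8.25, 7.87, 7.61 and 6.82 in control hearts. The IkBa carriers overlapped with each other and the TRAF2LC hearts spread over more than 2 log2 units. The interaction was large but imprecise at -2.42 ± 0.55 (SE, adjusted p = 0.167), and it was called in 1 of the 16 fits that left out an array (without TRAF2LC replicate 1, adjusted p = 0.0381). Acot1, an acyl-CoA thioesterase, had a positive interaction of 1.22 ± 0.28 (adjusted p = 0.184). Its means were 9.14, 9.05, 8.35 and 9.49 in double transgenic, IkBaDN, TRAF2LC and control hearts, and a second probe gave 1.05 ± 0.26. Bckdhb, a subunit of the branched-chain keto acid dehydrogenase, and Naprt, which makes NAD from nicotinic acid, likewise read lowest in TRAF2LC hearts, with interactions of 1.11 ± 0.24 and 0.84 ± 0.20 (adjusted p = 0.135 and 0.184). A second Naprt probe, detected on all arrays, gave 0.54 ± 0.20.

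Of the cell division genes among the 20, Prc1, which organizes the spindle midzone, had means of 6.41, 6.58, 7.10 and 5.91 in double transgenic, IkBaDN, TRAF2LC and control hearts. The mean of double transgenic hearts lay below those of both single transgenic groups, with an interaction of -1.36 ± 0.27 (adjusted p = 0.110). E2f1, a transcription factor of the entry into S phase, was detected on 0 control arrays and 4 arrays of each other genotype; with control at its limit the interaction was -0.78 or lower (adjusted p = 0.184). The centrosomal gene Cep85 was detected on 0 IkBaDN arrays and on 3 double transgenic, 2 TRAF2LC and 4 control arrays; with IkBaDN at its limit the interaction was 0.64 or higher (adjusted p = 0.110). It was the 1 gene of the 20 called for the IkBa transgene alone (adjusted p = 0.0168).

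Of the remaining 7 candidates, Mvp, the main protein of vault particles, had an interaction of -1.20 ± 0.28, Klhl32, a gene of the kelch-like family, -1.14 ± 0.26, Parp3, an ADP-ribosyltransferase of DNA repair, -1.17 ± 0.26 and Btbd11 -0.63 ± 0.14 (adjusted p from 0.150 to 0.184). A second Klhl32 probe, detected on 4 TRAF2LC arrays and on 1 of each other genotype, gave -0.31 ± 0.23. Tmem130 and Rnase1, a secreted ribonuclease, were detected on 4 TRAF2LC arrays and on 0 double transgenic and 0 IkBaDN arrays (adjusted p = 0.110 and 0.112). On control arrays Tmem130 was detected on 0 and Rnase1 on 2, and neither interaction has a size. TRAF2LC hearts exceeded the detection limit of double transgenic hearts at least 2.07-fold in Tmem130 and at least 2.43-fold in Rnase1. Lypd6 was detected on 0 double transgenic, 1 IkBaDN and 0 control arrays. With double transgenic and control hearts at the limit its interaction was -0.38 or lower (adjusted p = 0.110). That bound takes the IkBaDN mean as fitted, although IkBaDN hearts were mostly undetected. As in Tsc22d4, all 7 read highest in TRAF2LC hearts.

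RefSeq promoter windows (GRCm38.p6, 250 bases before to 50 after the start) were matched for 18 of the 20 genes, and 5 of them held the kappaB motif, the site bound by NF-kB dimers, on either strand. That is 27.8%, against 12.7% of the 5628 tested genes with a window. Tsc22d4 had no window and was not searched, so the 18 are all genes whose interaction did not pass. The core of the interferon-stimulated response element, on either strand, was in 2 of the 18 (11.1%) against 3.66%. TRAF2LC stood apart as the highest in all 5 genes, as it did in 14 of the 20 from which they come. Of the windows, 2 are shown, Tnip1 because its gene is an NF-kB target and Rnase1 because its window held both motifs; capitals mark the kappaB match, and in Tnip1 4 overlapping matches run together.
Tnip1: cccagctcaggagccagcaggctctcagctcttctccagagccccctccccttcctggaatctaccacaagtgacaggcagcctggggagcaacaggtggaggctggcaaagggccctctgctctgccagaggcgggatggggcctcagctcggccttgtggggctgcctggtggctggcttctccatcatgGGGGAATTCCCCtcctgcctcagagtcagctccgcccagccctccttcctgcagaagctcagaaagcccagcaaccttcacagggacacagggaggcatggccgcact
Rnase1: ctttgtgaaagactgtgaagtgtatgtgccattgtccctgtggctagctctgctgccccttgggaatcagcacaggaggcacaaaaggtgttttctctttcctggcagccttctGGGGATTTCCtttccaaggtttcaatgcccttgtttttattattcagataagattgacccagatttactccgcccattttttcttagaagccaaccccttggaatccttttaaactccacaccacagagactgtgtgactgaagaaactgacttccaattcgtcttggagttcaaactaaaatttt
These lie on the minus strand at chr11:54962891-54963190 and chr14:51146718-51147017. Relative to the gene start, the first matches begin at positions -58 and -136. The interferon-response core of Rnase1 begins at -159 on the opposite strand. The kappaB matches of Pde1b, Klhl32 and Mvp begin at -149, -32 and 28, and the other interferon-response core was in a second window of Pde1b. A match is a description of letters and says nothing of whether a factor binds there, and the counts over 18 genes are small.

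**Figure D2:**
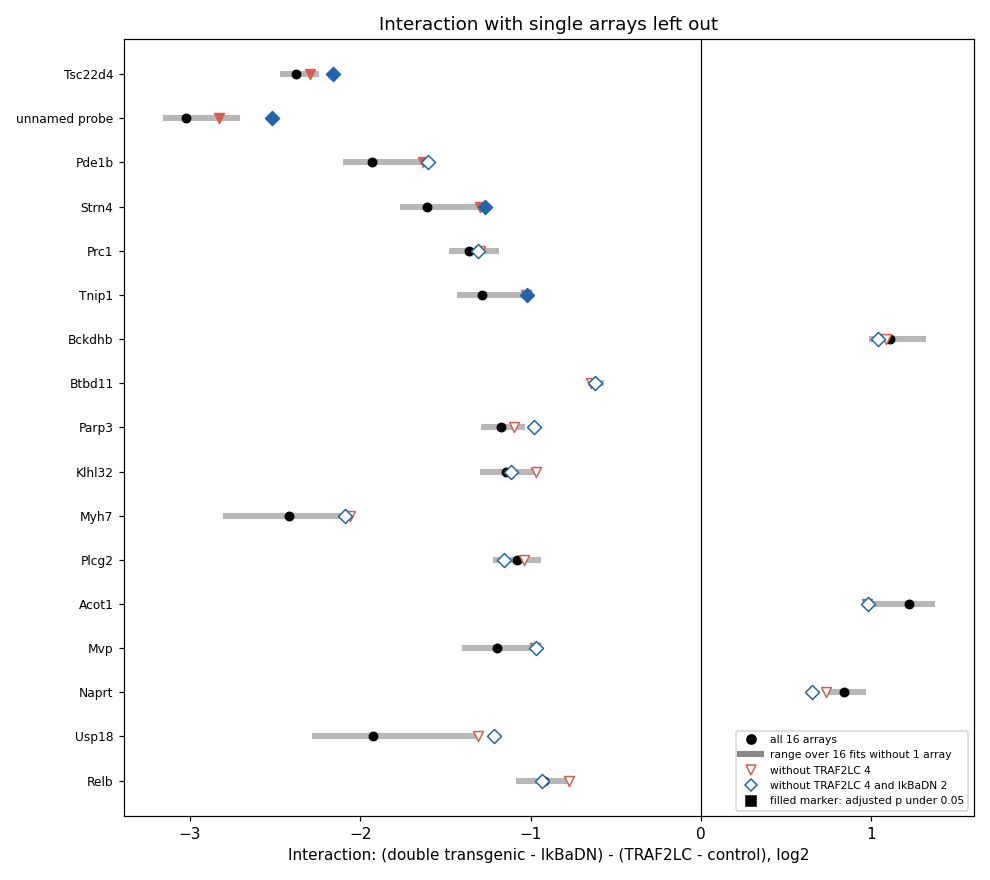
Interaction on the log2 scale (x axis) of the 14 measured genes among the 20 of smallest p, the unnamed probe, Relb and Usp18; black points are all 16 arrays, grey bars the range over 16 fits without 1 array, triangles the fit without TRAF2LC replicate 4 and diamonds the fit without both divergent arrays, filled where the adjusted p was under 0.05. All values stay on 1 side of 0, and Tsc22d4 and the unnamed probe have both markers filled.

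With TRAF2LC replicate 4 included, most candidate values were larger and fewer were called. Without TRAF2LC replicate 4, 17 of the 20 fitted interactions were smaller in size, yet 11 probes were called (10 negative and 1 positive), against 2 with all arrays. Of the 20 genes, 6 were among them: Tsc22d4, Strn4, Tnip1, Dlg2, Pde1b and Tmem130. Dlg2, the 1 positive call, and Tmem130 were called by p only, since their fitted sign uses values of undetected genotypes. Tlr2, a receptor for bacterial lipoproteins outside the 20 and named after its values were seen, was also called there. Without IkBaDN replicate 2 alone the count stayed at 2. Without both divergent arrays it was 8 (7 negative and 1 positive, again Dlg2). With array weights, which keep all arrays but count divergent ones less, 18 probes were called (15 negative and 3 positive). Leaving out TRAF2LC replicate 1 gave 7 calls, Tnip1, Pde1b, Myh7 and Rnase1 among them, and each other single array between 2 and 3. Tmem130 was also called without TRAF2LC replicate 3, and Bckdhb without IkBaDN replicate 3.

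Next, the effect of each transgene was read with and without the other, on arrays that the 2 readings do not share. TRAF2 changed 98 probes on its own (1.04% of those tested, 70 up, 0.741%, and 28 down, 0.296%). In hearts that carried the IkBa transgene, 71 of these 98 kept their direction but the median size was close to 0. For the 70 raised probes it was 0.08, against 1.12 on the arrays that chose them. For the 28 lowered probes it was -0.10, against -0.78. Over all probes the median was 0.01 and 53.8% lay above 0. With the P number runs as a block and calls made again, the median turned to the direction of the call was 0.24 for 101 probes, of which 86 kept their direction. Of the 98, 8 kept 0.5 or more of their change, and 1, Dlg2, was called again (0.0106% of all probes); with that block 18 of 101 kept as much. The number called for TRAF2 alone rested on few hearts. It was 47, 40, 51 and 61 without control replicates 1, 2, 3 and 4, and 61 and 50 without TRAF2LC replicates 2 and 4. Over the 16 fits without 1 array, 2 to 9 of the called probes kept 0.5 or more, and the median turned to the direction of the call was 0.07 to 0.15.

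The IkBa transgene behaved differently in this reading of probes called for 1 transgene alone. It changed 42 probes on its own (0.444%, 24 up, 0.254%, and 18 down, 0.19%), and beside TRAF2 40 of them kept their direction, 38 kept 0.5 or more of their change and 36 were called again, where 2.97% of all probes were called. The median of the 24 raised probes was 1.08 beside TRAF2, against 0.97 alone, and that of the 18 lowered probes -0.99, against -0.98. The number called was 24, 24 and 21 without control replicates 2, 3 and 4. Over the 16 fits without 1 array the median beside TRAF2, turned to the direction of the call, was 0.95 to 1.31. None of the 42 had a called interaction. Over all 9449 probes 2 did (0.0212%). Both were among the 98 called for TRAF2 alone and among the 281 called for the IkBa transgene beside TRAF2. Each of these calls uses arrays that also enter the interaction. Read the other way, 281 probes were called for the IkBa transgene beside TRAF2 (2.97%). In hearts without TRAF2, 249 of them kept their direction and 98 kept 0.5 or more of their change. The median of the 130 raised probes was 0.32 there, against 0.65 beside TRAF2, and that of the 151 lowered probes -0.26, against -0.81. Kcne1, a regulatory subunit of cardiac potassium channels chosen after its values were seen, had means of 8.38 in double transgenic against 6.60 in TRAF2LC hearts, and 8.60 in IkBaDN against 6.65 in control hearts. The monocarboxylate transporter gene Slc16a6 had 8.22 against 6.42 and 7.95 against 5.80 in the same pairs. Their interactions were -0.17 ± 0.20 and -0.35 ± 0.22 (SE, adjusted p = 0.949 and 0.868). Changes chosen as the largest tend to read smaller on other arrays, and the difference between the 2 transgenes was not tested. Across all probes the effects with and without the other transgene correlated at r = 0.17 for TRAF2 and 0.35 for IkBa, as a description over probes of the same arrays.

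**Figure D3:**
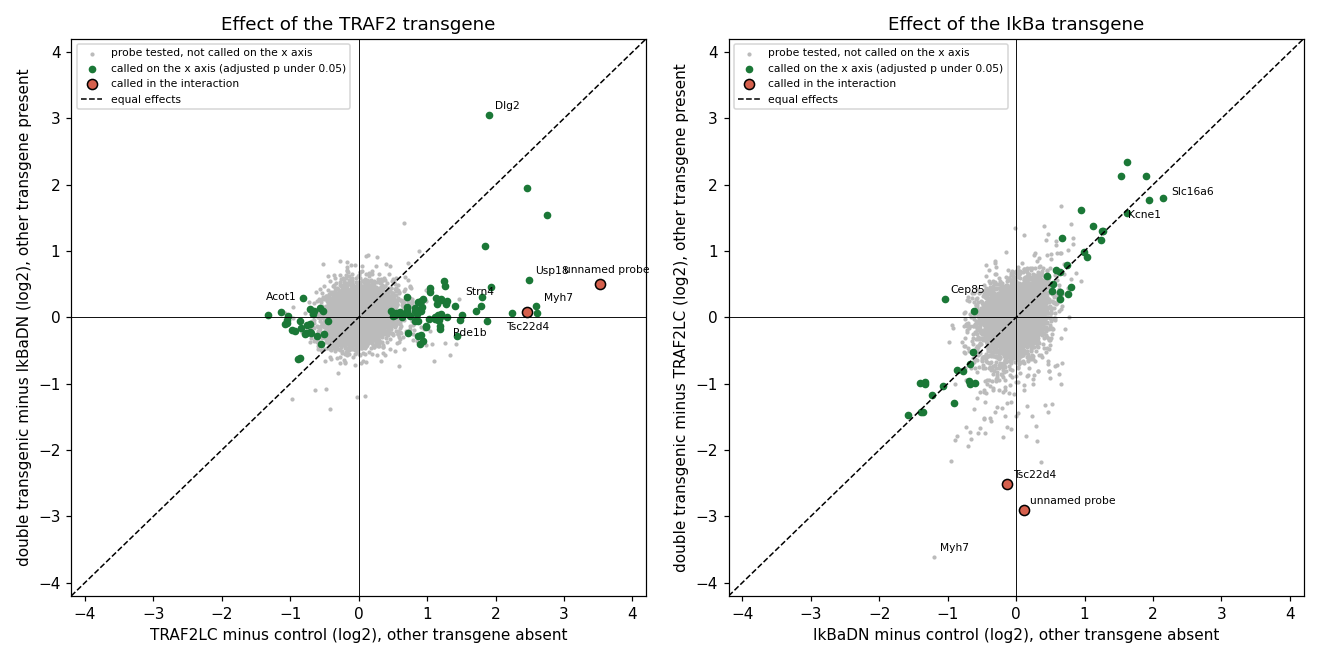
Log2 effect of the TRAF2 transgene (left) and the IkBa transgene (right) beside the other transgene (y axis) against its effect alone (x axis) for 9449 probes; green points were called on the x axis, red points in the interaction, and the dashed line marks equal effects. Most of the 98 TRAF2 probes lie near the horizontal line at 0, with Dlg2 as the highest, and most of the 42 IkBa probes near the dashed line.

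Of the 8 TRAF2 probes that kept 0.5 or more of their change, named here after their values were seen, Isg15, Ifit3 and Rsad2 belong to the antiviral interferon response. Isg15, a ubiquitin-like modifier, read 7.82, 8.70, 7.61 and 8.37 in double transgenic and 5.80, 6.52, 6.64 and 5.76 in IkBaDN hearts. The difference of 1.95 ± 0.52 (SE, adjusted p = 0.744) did not pass. Ifit3 differed by 1.55 ± 0.45 and Rsad2, the antiviral protein viperin, by 1.07 ± 0.39 in the same comparison, also without passing (adjusted p = 0.801 and 0.850). In TRAF2LC hearts the 3 genes were led by replicate 4, which read 10.69 in Isg15 where the other 3 read 8.48, 7.90 and 7.24. The water channel gene Aqp4 differed by -0.62 ± 0.20, Lypd2 by -0.61 ± 0.18, 1700029P11Rik by -0.41 ± 0.12 and Thbs2, an extracellular matrix thrombospondin, by -0.25 ± 0.10 between double transgenic and IkBaDN hearts, and none of these 4 passed (adjusted p from 0.755 to 0.850).

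The gene lists drawn up for this tissue held 0 called members, and are described by counts and medians. Over all genes tested the median interaction was 0.02, 3613 of 6902 lay above 0 and 446 (6.46%) had an unadjusted p under 0.05. Counts in a list are over its measured genes, those detected on 1 array or more of each genotype; medians on single arrays or without arrays are over all its genes tested. In the interferon response list 17 of 19 measured genes lay below 0, with a median of -0.78, and 9 had an unadjusted p under 0.05. The other 4 tested genes of the list, Irf7, Dhx58, Mx2 and Oasl2, were undetected in genotypes on both sides of the contrast and have no size. On single arrays the median of that list over the control mean was 0.12, 0.26, 0.01 and 0.31 in double transgenic hearts and -0.01, 0.30, -0.05 and 0.13 in IkBaDN hearts. In TRAF2LC hearts it was 0.53, 0.76, 0.47 and 2.16, so all 4 lay above the others and replicate 4 far above. Without that array the median interaction was -0.42, and without both divergent arrays -0.34. Usp18, which removes ISG15 from proteins, had the smallest p of the list (-1.92 ± 0.57, adjusted p = 0.455; -1.31 ± 0.26 without TRAF2LC replicate 4, adjusted p = 0.0956).

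Antigen presentation genes lay below 0 in 15 of 15 measured members, with a median of -0.60 and 7 at an unadjusted p under 0.05. The median was -0.40 without TRAF2LC replicate 4 and -0.29 without both divergent arrays. Tap1, a subunit of the peptide transporter and the other gene tested, was detected on 0 double transgenic, 2 IkBaDN and 0 control arrays. With double transgenic and control hearts at the limit and the IkBaDN mean as fitted, its interaction was -0.71 or lower (adjusted p = 0.282). B2m, the light chain of MHC class I, chosen after its values were seen, had means of 11.20, 11.45, 12.08 and 11.29 in double transgenic, IkBaDN, TRAF2LC and control hearts (interaction -1.04 ± 0.35, adjusted p = 0.617).

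Markers of macrophages moved with these 2 lists, and 10 of the 11 measured markers had an interaction below 0 (median -0.43; -0.26 without TRAF2LC replicate 4). Their summed normalized intensity was 5259 to 6153 in double transgenic, 5298 to 6130 in IkBaDN, 6293 to 9722 in TRAF2LC and 5207 to 5910 in control hearts. Without replicate 4 the highest TRAF2LC sum was 6794. Of the 22 listed markers 6, Adgre1, Cd163, Itgam, Ctss, Ccr2 and Lyve1, were detected on 0 arrays. The part of such cells in the interferon and antigen presentation values was not tested, and in bulk tissue more cells and more RNA per cell cannot be told apart. Cx3cr1, a chemokine receptor of tissue macrophages, had the smallest p of the list and means of 6.27, 6.23, 6.97 and 6.11 in double transgenic, IkBaDN, TRAF2LC and control hearts (interaction -0.81 ± 0.25, adjusted p = 0.481).

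No member of the NF-kB pathway itself reached the threshold. Of 14 measured canonical NF-kB targets 9 lay below 0, with a median of -0.35 and 6 at an unadjusted p under 0.05; without TRAF2LC replicate 4 the median was -0.25. Relb, the NF-kB subunit that pairs with p52 downstream of NIK, read 6.07, 5.89, 6.04 and 5.64 in double transgenic and 5.80, 5.16, 5.71 and 5.85 in IkBaDN hearts. It read 7.84, 7.39, 7.42 and 8.13 in TRAF2LC and 6.68, 6.87, 6.03 and 6.38 in control hearts. TRAF2LC hearts stood above all others, and the IkBa carriers mostly below control. The interaction was -0.92 ± 0.29 (SE, adjusted p = 0.562), and the probe was detected on 2 of 4 IkBaDN arrays. Bcl2, an inhibitor of apoptosis, had -1.12 ± 0.30 (adjusted p = 0.302) and Nfkbia -0.40 ± 0.19 (adjusted p = 0.795). Traf2 had -0.40 ± 0.20 (adjusted p = 0.807) and Map3k14, the gene of NIK, 0.10 ± 0.37 (adjusted p = 0.988); the Nfkb2 probe was detected on 0 arrays. Of the 14 measured TRAF, cIAP, NIK and IKK genes 11 lay below 0 (median -0.22) and 0 had an unadjusted p under 0.05. Over the 15 tested, the median was -0.05 without TRAF2LC replicate 4, 0.01 without both divergent arrays and 0.04 with median scaling, so its side of 0 was not stable.

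Among metabolic and contractile genes, fatty acid oxidation had 19 of 27 measured genes above 0 (median 0.13, 3 at an unadjusted p under 0.05), oxidative phosphorylation 23 of 34 (0.04) and calcium handling and ion channels 16 of 24 (0.14). Over all tested genes of these 3 lists the medians were 0.04, 0.0015 and 0.04 without TRAF2LC replicate 4, and that of oxidative phosphorylation was -0.03 without both divergent arrays. The fetal and hypertrophy list had 12 of 17 measured genes below 0 and a median of -0.07, which was -0.37 with the fitted values of 2 more genes whose interaction has no size. Sarcomere and Z-disc genes had a median of -0.03 with 10 of 24 above 0. Myh6 itself had means of 14.39, 14.36, 14.43 and 14.37 in double transgenic, IkBaDN, TRAF2LC and control hearts. Among markers of other cells, atrial cardiomyocyte genes had 10 of 11 above 0 (median 0.39; 0.25 without TRAF2LC replicate 4) and smooth muscle and pericyte genes 12 of 14 (0.23; 0.14), while endothelial and fibroblast medians were 0.00 and -0.06. Summed atrial marker intensity was 64380 to 82420 in double transgenic, 64030 to 77790 in IkBaDN, 71010 to 87450 in TRAF2LC and 82320 to 84860 in control hearts, so every IkBaDN heart lay below every control heart, while the other pairs of genotypes overlapped. Summed smooth muscle and pericyte intensity was 36370 to 37640 in double transgenic and 27020 to 42520 in IkBaDN hearts. This sum was 26200 to 29820 in TRAF2LC and 23770 to 30340 in control hearts, all below the double transgenic hearts. The separation was limited to the sum, in which bright genes count most. By the log2 median of the same list per array, double transgenic hearts spanned -0.09 to 0.15. That range overlapped with TRAF2LC (-0.48 to 0.01) and control hearts (-0.11 to 0.20). Median scaling in place of quantile normalization moved the median of all probes to 0.22, so these small list values hold only relative to that of all genes.

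Of the other lists, extracellular matrix and TGF-beta genes had 16 of 21 measured genes below 0 (median -0.21), the circadian clock 7 of 9 (-0.29), heat shock and chaperone genes 12 of 17 (-0.12) and the cell cycle 9 of 12 (-0.15). Their medians over all tested genes spanned -0.26 to -0.13, -0.32 to -0.06, -0.21 to -0.0056 and -0.16 to -0.04 over the 16 fits without 1 array. Without TRAF2LC replicate 4 they were -0.13, -0.15, -0.07 and -0.07, and without both divergent arrays the extracellular matrix median was -0.06. The gene of smallest p in each list did not pass. Tgfb3, a TGF-beta ligand, had means of 7.07, 6.87, 8.20 and 7.06 in double transgenic, IkBaDN, TRAF2LC and control hearts (interaction -0.94 ± 0.28, adjusted p = 0.429). Nqo1, a quinone reductase of the NRF2 response, had 8.45, 8.70, 9.07 and 8.49 in the same order (-0.83 ± 0.28, adjusted p = 0.636). In both the TRAF2LC mean was highest, as in Tsc22d4. The TRAF2LC values of Tgfb3 overlapped with no other array, while those of Nqo1 did overlap. Without TRAF2LC replicate 4 the interactions were -0.74 ± 0.23 for Tgfb3 and -0.61 ± 0.22 for Nqo1 (adjusted p = 0.652 and 0.902). On the positive side, Nfil3, a repressor in the circadian clock, had 8.21, 7.51, 7.67 and 7.85 (0.88 ± 0.31, adjusted p = 0.679). Bmp10, a ligand made by atrial muscle, had 7.19, 6.78, 6.92 and 7.36 (0.86 ± 0.29, adjusted p = 0.620). Klf4, an immediate early transcription factor, had 7.66, 7.29, 7.42 and 7.71 (0.66 ± 0.21, adjusted p = 0.599), and its second probe gave 0.18 ± 0.32. In Bmp10 and Klf4 both single transgenic means lay below the double transgenic and control means.

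**Figure D4:**
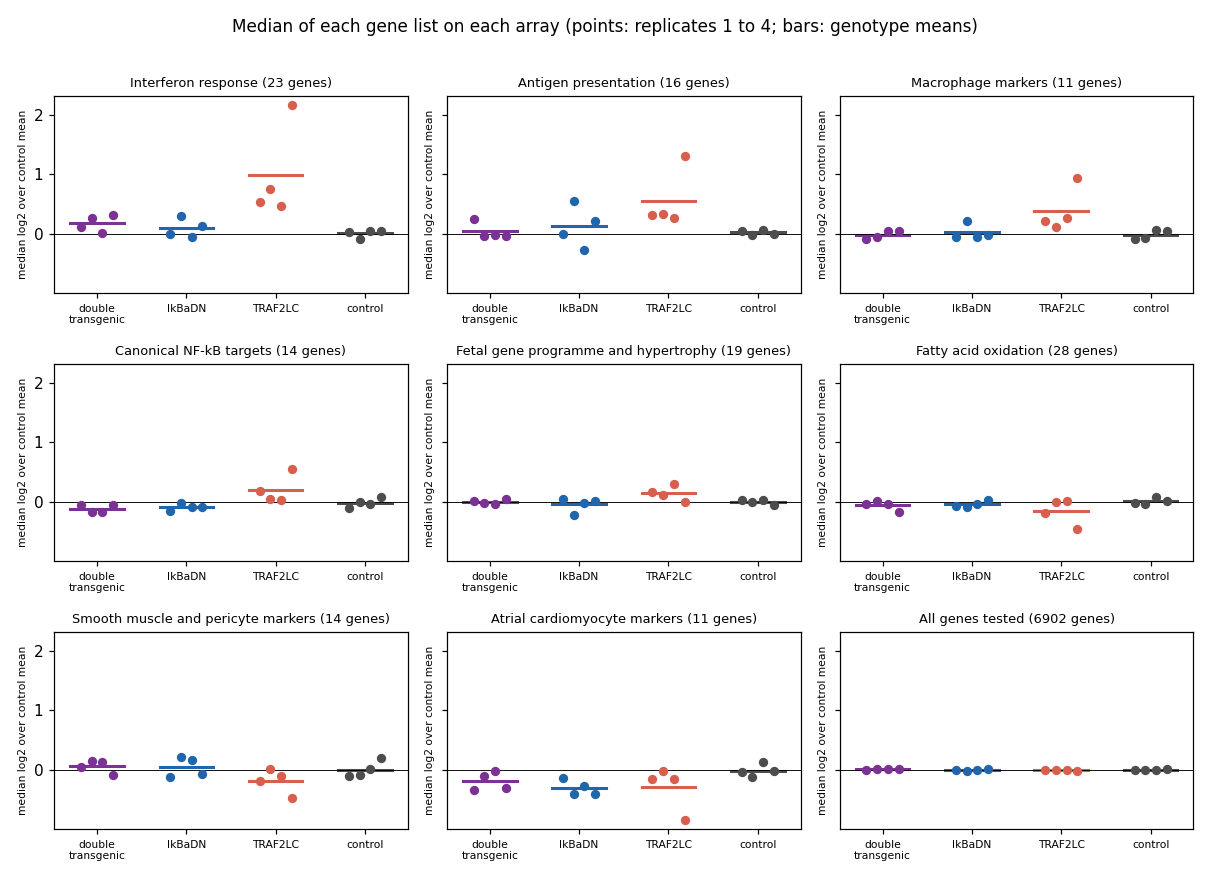
Median of 8 gene lists and of all genes tested on each array, as log2 over the control mean (y axis); points are replicates 1 to 4 of each genotype and bars genotype means. TRAF2LC replicate 4 reaches 2.16 in the interferon response list, where the other TRAF2LC hearts lie at 0.47 to 0.76.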

How the data were processed

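RNA of 16 left ventricles was read on single-colour Illumina mouse arrays. The deposited table holds 1 background-subtracted intensity per probe and array, made by the authors with BeadStudio or GenomeStudio per the submitters' processing notes, beside the authors' detection p-value; steps and versions are not given in the sources used here. The deposited value table holds those intensity values times 1 factor per array and served as an alternative. Background correction used limma 3.58.1 in R 4.3.3 (nec from detection p-values, offset 16), then log2 and quantile normalization. One limma fit (lmFit, eBayes; 12 residual and 4.64 prior degrees of freedom) of 4 genotype means on all arrays gave the interaction and single effects, with two-sided p adjusted by Benjamini-Hochberg over 9449 probes and called under 0.05. The fit was tested on simulated data. Gene names came from the platform's probe table; 517 tested probes are unnamed here. The brightest tested probe stands for a gene, and a second probe is given for some genes.

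Genotypes detected on 0 arrays were set to each array's detection limit, and the value is given as a bound; where 2 on opposite sides of the contrast enter, only the p is given. Standard errors pool the spread of all genotypes. Replicates are separate hearts; p-values measure the spread between them. Named were Traf2, Nfkbia, Myh6, Relb, Nfkb2 and Map3k14, called genes (up to 15 each way), the member of smallest p in each list, and genes said to be chosen after their values were seen. Members and lists were chosen with earlier results of these data known. Of 24 pairs of arrays with the same replicate number, 16 correlated over 0.1 in their deviations from the genotype means (median 0.25, from -0.29 to 0.41). For numbers 1 and 3 all 6 pairs did, and the 4 arrays of each lie in 1 set of 8 columns; for numbers 2 and 4, which span both sets, 1 and 3 of 6 did. Since not every pair was over 0.1 and no label ties a number to a shared source, the numbers were not taken to pair the hearts. Alternatives covered normalization, background, offset, deposited scaled values, filters, weights, blocks, and leaving out arrays.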

Additional observations from a re-analysis of the deposited data

Results flagged for a closer look

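Both called interactions are differences between the effects of 1 transgene in 2 backgrounds, by the limma test of the difference itself: -2.38 for Tsc22d4 and -3.02 for the unnamed probe ILMN_2889832 on the log2 scale.

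By Dixon's criterion, a single array stood far from the other 3 of its genotype in 19 of 316 sets of 4 values examined, and chance gives about 1 in 20. Among named genes these were Tnip1 (8.97 in double transgenic replicate 3), Kcnv2 (7.56) and Naprt (8.98) in double transgenic replicate 2, and Plin4 (11.27 in double transgenic replicate 4), all high. The unnamed probe ILMN_2889832 was high in IkBaDN replicate 2 (7.09). Tgfb3 (7.20) and Klf4 (7.92) were high in control replicate 2, and Pdk1 was low in control replicate 4 (6.73). TRAF2LC replicate 4 stood apart in the list medians of interferon response (2.16), antigen presentation (1.31) and atrial markers (-0.84), and TRAF2LC replicate 1 in cell cycle (0.049). Double transgenic replicate 1 stood apart in antigen presentation (0.25). IkBaDN arrays did so in NF-kB subunits (0.041, replicate 4), extracellular matrix (0.13, replicate 4), sarcomere (-0.10, replicate 1) and macrophage markers (0.22, replicate 2). Control arrays did so in interferon response (-0.088, replicate 2) and conduction markers (-0.13, replicate 3).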

How the results depend on the processing

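The 2 called probes were called in all 31 settings run, and leaving out 1 array gave 2 to 11 calls (7 without TRAF2LC replicate 1 and 11 without TRAF2LC replicate 4). The count was 8 without TRAF2LC replicate 4 and IkBaDN replicate 2, 18 with array weights, 4 with median scaling, 4 without background correction, 5 with the deposited scaled values, 5 with the column sets as a block and 3 with the P number runs as a fixed block. With the replicate number as a block, a number not taken to pair the hearts, it was 4. The correlation of TRAF2 effects across probes was 0.306 with the P number runs as a fixed block, against 0.173. The median of the TRAF2 calls beside the IkBa transgene, turned to the direction of the call, was 0.0839 and became 0.274 with median scaling, 0.133 with the deposited scaled values, and 0.216 and 0.126 with the P number runs as a fixed and a random block. When the calls were made again in each setting, an addition made after seeing the data, it was 0.129 for 50 probes without TRAF2LC replicate 4, 0.109 for 56 without both divergent arrays, 0.245 for 101 with the P number runs as a fixed block and 0.326 for 70 with median scaling. For the IkBa calls beside TRAF2 the median was 0.989, and 1.11, 1.08 and 0.808 with the deposited scaled values, no background correction and offset 50. The cause of these shifts was not tested. Some named genes near 0 changed sign. The interaction of Myh6 was 0.157 with median scaling, 0.647 with its other probe and -0.0611 to 0.0166 over the 16 fits without 1 array. The interaction of Map3k14 was -0.0408 with array weights and -0.115 to 0.323 over those fits, and the interaction of S100a8 was -0.639 to 0.0974. The interaction of Kcne1 was 0.0886 with median scaling, and with other probes the interaction of Mbp was -0.0860 and the interaction of Slc16a6 was 0.0406. The 4 hearts per genotype and dim probes near the detection limit bound what the design can show.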
